A study of Mus musculus with 12 samples.

Results

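The zinc finger genes Egr1, Egr2, Egr3, Klf2, Klf4 and Klf6 and the orphan nuclear receptor genes Nr4a1, Nr4a2 and Nr4a3 were followed by symbol in RNA-seq of mouse bone marrow-derived dendritic cells (BMDCs). These are 9 of the 55335 genes listed, and all 9 passed the filter on low counts. The cells came from C57BL/6 mice that carry the tamoxifen-inducible CreER recombinase with an intact Ctcf gene, a genotype called WT in all 4 groups. Bone marrow was cultured with GM-CSF, a cytokine that supports dendritic cell growth, for 6 days with a medium change every 2 days, and the methods of the study give mice of 8 to 12 weeks and floating cells selected for the dendritic cell surface protein CD11c. WT was left without stimulus, WTL received lipopolysaccharide (LPS), a ligand of the receptor TLR4, at 100 ng/ml for 3 h, WT + JSH23 received JSH-23, a compound that hinders nuclear entry of the NF-κB subunit RelA, at 100 µM for 3 h, and WTL + JSH23 received JSH-23 followed by LPS at the same doses. Each group holds 3 libraries, numbered 4 to 6 in WT and WTL and 1 to 3 in the JSH-23 groups, and the labels do not say whether the groups without JSH-23 received its solvent or whether any culture was given tamoxifen. Because no replicate number is shared across the JSH-23 arm, an effect of JSH-23 cannot be told apart from any difference between libraries 1 to 3 and 4 to 6, of which the labels do not say whether they were cultured separately.

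EGR proteins bind GC-rich DNA and are encoded by immediate early genes, whose transcripts usually rise fast after a stimulus without new protein synthesis and then decline. Among the Krüppel-like factors, KLF2 is best known for restraining inflammatory activation of myeloid cells and endothelium, KLF4 takes part in monocyte and dendritic cell differentiation, and KLF6 is known as a co-activator of NF-κB target genes in macrophages. No physiological ligand is established for NR4A receptors, and their activity depends only in part on their amount. Protein and activity were not measured in these libraries. NR4A3 is known in dendritic cells for its part in migration towards lymph nodes.

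Promoter windows from RefSeq (GRCm38.p6), each with 250 bases before and 50 after a transcript start, were used for 7 of the 9 genes. They comprise 11 windows, of which 5 belong to Egr2. No window was used for Egr1 and none was found for Egr3, so neither gene was searched. They were searched on both strands for 8 motifs. TGACG, the core of the cAMP response element bound by CREB and ATF factors, was found in windows of 6 of the 7 genes, Klf6 being the exception. It occurred in 20.8% of all 32851 windows of that length and in the first listed window of 21% of 27025 genes. Egr2 had more windows than the other genes, some of them overlapping, and 3 of its 5 held the core. The windows of Nr4a1, Nr4a2 and Nr4a3 each held 4 copies, and 0.231% of all windows held at least 4. The NR4A windows were also rich in CG dinucleotides, with 26 to 52 of them against a median of 7, and TGACG itself contains CG. A CArG box, the site of serum response factor, was present in 4 of the 5 Egr2 windows and in 1.63% of all windows. Several of these Egr2 windows overlap and hold the same box, so they are not separate occurrences. MEF2 sites were found in the windows of Nr4a2 and Klf2 (3.19% of all windows), and a general NF-κB site in those of Nr4a1 and in 1 Egr2 window (8.46% of all windows). No member window held TGACGTCA (the full cAMP response element, which contains the core), GCGTGGGCG (an EGR site), AAAGGTCA (the monomer site of NR4A receptors) or TGANTCA (the AP-1 site), which occur in 1.79%, 0.612%, 1.51% and 7.81% of all windows. These matches describe letters in the sequence and not binding. The 4 stretches below are shown because the 3 NR4A genes all rose with LPS while Egr2 fell, and they were picked with those values known. Each gives bases before a RefSeq start that lie in no annotated exon, 5′ to 3′ on the strand of the gene, with motif matches on either strand in capitals (CGTCA is TGACG read on the other strand). They cover chr15:101266596-101266845 (plus strand) for Nr4a1, chr2:57124004-57124253 (minus strand) for Nr4a2, chr4:48045055-48045152 (plus strand) for Nr4a3 and chr10:67537619-67537868 (plus strand) for Egr2. The Egr2 stretch lies within an intron of longer Egr2 transcripts, and the Nr4a1 stretch also lies inside the annotated span of its gene.
Nr4a1: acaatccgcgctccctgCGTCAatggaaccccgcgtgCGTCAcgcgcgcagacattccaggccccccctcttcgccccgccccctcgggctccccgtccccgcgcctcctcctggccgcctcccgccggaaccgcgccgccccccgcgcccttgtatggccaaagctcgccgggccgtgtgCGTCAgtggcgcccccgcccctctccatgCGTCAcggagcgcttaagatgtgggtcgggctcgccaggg
Nr4a2: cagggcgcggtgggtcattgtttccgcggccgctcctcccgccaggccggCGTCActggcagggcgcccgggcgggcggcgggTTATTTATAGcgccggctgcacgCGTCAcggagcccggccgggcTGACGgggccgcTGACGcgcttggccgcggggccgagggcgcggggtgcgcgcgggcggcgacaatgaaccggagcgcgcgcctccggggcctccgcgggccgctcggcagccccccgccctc
Nr4a3: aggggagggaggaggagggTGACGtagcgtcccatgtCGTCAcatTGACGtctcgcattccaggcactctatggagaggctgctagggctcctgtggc
Egr2: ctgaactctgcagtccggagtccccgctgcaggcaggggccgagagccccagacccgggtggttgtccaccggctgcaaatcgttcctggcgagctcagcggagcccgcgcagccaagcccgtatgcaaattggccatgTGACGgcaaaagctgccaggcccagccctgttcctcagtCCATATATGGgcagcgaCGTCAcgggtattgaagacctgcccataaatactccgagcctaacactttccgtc
In the Nr4a1 stretch the capitals mark 4 cores, in that of Nr4a2 4 cores and a MEF2 site, in that of Nr4a3 3 of its 4 cores, and in that of Egr2 a CArG box between 2 cores.

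In GRCm38, Egr1 lies on chromosome 18 (34859823 to 34864984), Egr2 on chromosome 10 (67535475 to 67542188) and Egr3 on chromosome 14 (70077203 to 70082614). Klf2 lies on chromosome 8 (72319033 to 72321656), Klf4 on chromosome 4 (55527143 to 55532466) and Klf6 on chromosome 13 (5861482 to 5870394). Nr4a1 lies on chromosome 15 (101254269 to 101274795), Nr4a2 on chromosome 2 (57106830 to 57124003) and Nr4a3 on chromosome 4 (48045153 to 48086447). None of the 9 overlaps another annotated gene, and all of their expected counts were whole numbers. The longest coding transcripts of the EGR genes have 2 exons, those of the KLF genes 3 to 5 and those of the NR4A genes 8, beside a median of 9 over the protein-coding genes tested. Copies of ATTTA, a short element found in many unstable mRNAs, stood at 5.52 per kb in the 3′ untranslated region of Nr4a1 and between 1.02 and 2.65 per kb in the other members, beside a median of 1.36 per kb over the protein-coding genes tested.

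Total expected counts per library ran from 24664724 to 34837847. CPM denotes counts on a common scale after division by the library size adjusted with the trimmed mean of M values (TMM), and TPM are the length-scaled transcript levels that the authors deposited. A gene passed at an adjusted p below 0.05 in the quasi-likelihood F-test of edgeR over 14357 genes. The p values measure the spread between libraries that the study calls biological replicates. Summed TPM of 8 dendritic cell markers lay between 17450.0 and 19690.0 in all 12 libraries and all 8 were detected in each group. Single markers moved nonetheless, with 6 of 8 higher and 1 lower in WTL than in WT (Irf4 2.66-fold and Zbtb46 2.03-fold higher) and 1 higher and 5 lower in WTL + JSH23 than in WTL, and their part in the results below was not tested. Of all genes, 31% were higher and 34.7% lower in the first comparison, and 24.5% and 24.2% in the second. By contrast, 6 lymphocyte and 4 mast cell or basophil markers summed to at most 3.52 and 1.29 TPM. Macrophage and monocyte markers, which GM-CSF cultures are known to contain, summed to 3169.0 to 3293.0 TPM in WT, 3293.0 to 3388.0 in WTL, 2223.0 to 2262.0 in WT + JSH23 and 2584.0 to 2629.0 in WTL + JSH23, with none of the 11 at 0. In bulk RNA, fewer cells of a type and less RNA per cell cannot be told apart.

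Levels between genes were compared in TPM, which accounts for transcript length. In WT, Klf6 was the most abundant member at 204 ± 4.77 TPM (SD, n = 3), followed by Nr4a3 at 133 ± 4.84 and Egr2 at 22.3 ± 0.254. The other 6 members in WT lay between 0.617 and 6.77 TPM, in the order Klf2, Egr1, Klf4, Nr4a2, Egr3 and Nr4a1, and the libraries of Klf4 and Nr4a2 overlapped while those of other neighbours did not. Klf6 made up 95.3% of the summed TPM of the 3 KLF genes in WT and Nr4a3 97.4% of that of the 3 NR4A genes. Each of these sets of 3 was thus represented mainly by a single gene. Other KLF genes, such as Klf3 and Klf13 at means of 70.5 and 81.3 CPM in WT, are not part of the KLF sum. Across all 4 groups the mean share of Klf6 stayed between 95.3% and 97.8% and that of Nr4a3 between 95.2% and 97.4%. In WTL the order at the top differed, with Nr4a3 at 253 ± 10.9 TPM and Klf6 at 229 ± 4.64 TPM. Their libraries did not overlap in TPM but did in CPM per kb of transcript (193 ± 12.5 and 178 ± 7.06), an alternative chosen after seeing the data. Egr2 (10.4 ± 1.03 TPM) and Nr4a2 (6.11 ± 0.195 TPM) came next without overlap. Further down in WTL, Klf2, Nr4a1, Egr1 and Klf4 lay between 2.17 and 3.09 TPM with overlapping neighbours, and Egr3 was last at 0.293 ± 0.0635 TPM. In both JSH-23 groups Klf6, Nr4a3 and Egr2 again held the top ranks in that order with no overlap between neighbours, and Egr3 was last. Nr4a2 ranked next in both, but its TPM in WT + JSH23 replicate 3 (9.83, against 3.78 and 4.45 in the other libraries of that group) came with an effective length of 1089 bases where the other 11 libraries had 2694 to 3089, so that CPM are used for this gene below. The share of 95.2% for Nr4a3, in WT + JSH23, includes that library. Behind Nr4a2, WT + JSH23 had the order Klf4, Klf2, Egr1 and Nr4a1 without overlap between neighbours, and WTL + JSH23 had Klf4, Klf2, Nr4a1 and Egr1 with overlap between each pair of neighbours.

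**Figure D1:**
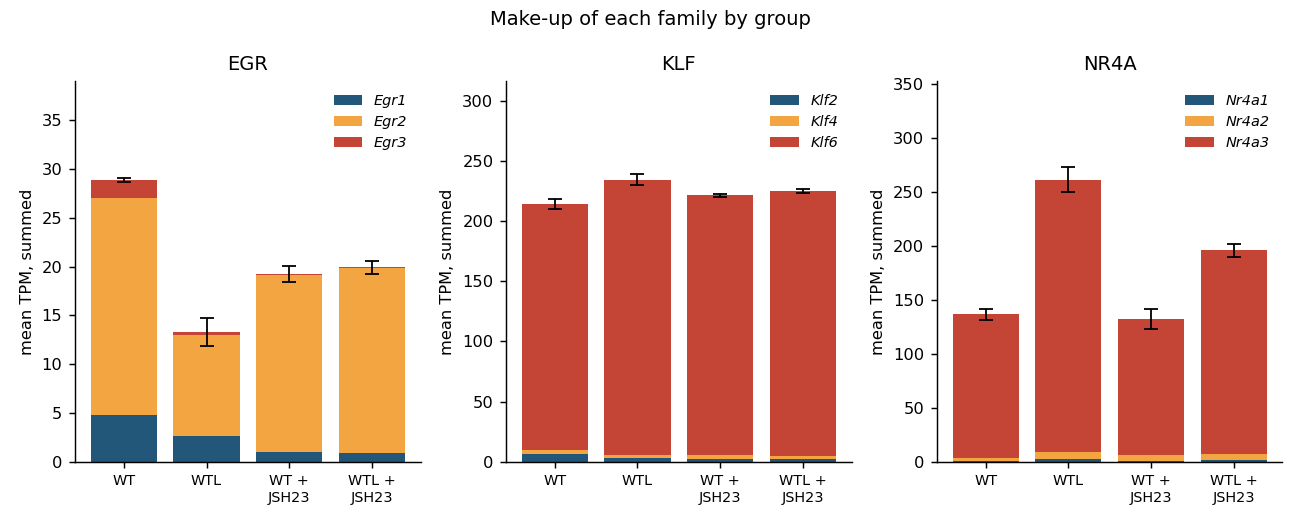
Mean TPM of the members of each family stacked by group (bars start at 0; whiskers are the SD of the family sum over 3 libraries). Egr2, Klf6 and Nr4a3 make up most of each bar, and the NR4A sum is highest in WTL at 262 ± 11.6 TPM.

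To examine the LPS response, WTL was compared with WT. All 3 NR4A genes and Klf6 rose, all 3 EGR genes and Klf2 fell, and Klf4 did not pass. Thus 8 of 9 members passed, 4 in each direction, where 65.7% of all genes tested passed (31% higher and 34.7% lower). With a change of more than 2-fold added, 4 members passed (Nr4a1, Nr4a2 and Nr4a3 higher and Egr3 lower), where 16.4% of all genes did. Which members exceeded 2-fold depended on the scaling. With library totals in place of TMM, the log2 fold changes were 0.89 for Nr4a3, -1.07 for Egr2 and -1.13 for Klf2. Relative to the median of all genes, they were 1.27, -0.70 and -0.75 under either scaling. The libraries of WT and WTL did not overlap for the 8 members that passed, and 69.9% of all genes showed no overlap.

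Nr4a1, the founding member of its family, stood at 0.765, 0.882 and 0.828 CPM in WT replicates 4, 5 and 6 and at 4.34, 4.03 and 4.24 CPM in WTL. Every WTL library was thus several-fold above every WT library, with a log2 fold change of 2.34 (SE 0.27, edgeR adjusted p = 1.16e-07). Nr4a2 stood at 5.69, 5.52 and 4.90 CPM in WT and at 14.4, 14.4 and 13.5 CPM in WTL. Its 2.62-fold rise (log2 fold change 1.39, SE 0.08, edgeR adjusted p = 3.18e-12) also left a wide gap between the groups. Nr4a3, by far the most abundant of the trio, stood at 420, 404 and 403 CPM in WT and at 1010.0, 958 and 888 CPM in WTL. No WTL library came near the WT range, and the rise was 2.33-fold (log2 fold change 1.22, SE 0.05, edgeR adjusted p = 2.99e-15).

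Klf6 rose by a smaller factor from a high level. It stood at 483, 493 and 472 CPM in WT and at 697, 681 and 644 CPM in WTL, a 1.40-fold rise (log2 fold change 0.48, SE 0.04, edgeR adjusted p = 1.42e-10). The lowest WTL library lay well above the highest WT library. The size of this rise depended on the scaling, since with library totals in place of TMM the median of all genes moved from -0.05 to -0.38 and Klf6 to 0.15 (edgeR adjusted p = 0.00035), while relative to that median it was 0.53 under either scaling. In limma on log2(TPM + 1) the change was 0.165 (adjusted p = 0.000236). Klf2 moved the other way, from 6.24, 6.71 and 7.11 CPM in WT to 3.56, 3.93 and 4.05 CPM in WTL. This 1.74-fold lower level (log2 fold change -0.80, SE 0.13, edgeR adjusted p = 1.19e-05) again showed no overlap. Klf4 had 5.20, 5.06 and 5.90 CPM in WT and 5.08, 3.23 and 5.16 CPM in WTL. Here the groups overlapped, the low value of WTL replicate 5 set most of the difference, and the gene did not pass (log2 fold change -0.28, SE 0.17, edgeR adjusted p = 0.146).

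Egr3 showed the largest fall of the members. Its counts were 109, 128 and 106 in WT and 20, 19 and 20 in WTL, which are 3.33, 3.64 and 3.66 CPM against 0.775, 0.633 and 0.921 CPM. The WTL libraries were all below 1 CPM and the level was 4.61-fold lower (log2 fold change -2.21, SE 0.23, edgeR adjusted p = 3.13e-08). Egr2 fell from 34.95, 37.1 and 37.0 CPM to 20.9, 20.7 and 23.8 CPM (log2 fold change -0.74, SE 0.06, edgeR adjusted p = 3.40e-10). Egr1 fell from 8.96, 8.37 and 9.003 CPM to 5.54, 5.83 and 7.09 CPM (log2 fold change -0.52, SE 0.11, edgeR adjusted p = 0.000278). In both genes the 3 WTL libraries lay below the 3 WT libraries, Egr1 with the narrower gap. With library totals the fall of Egr1 was -0.85, while relative to the median of all genes it was -0.47 under either scaling.

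**Figure D2:**
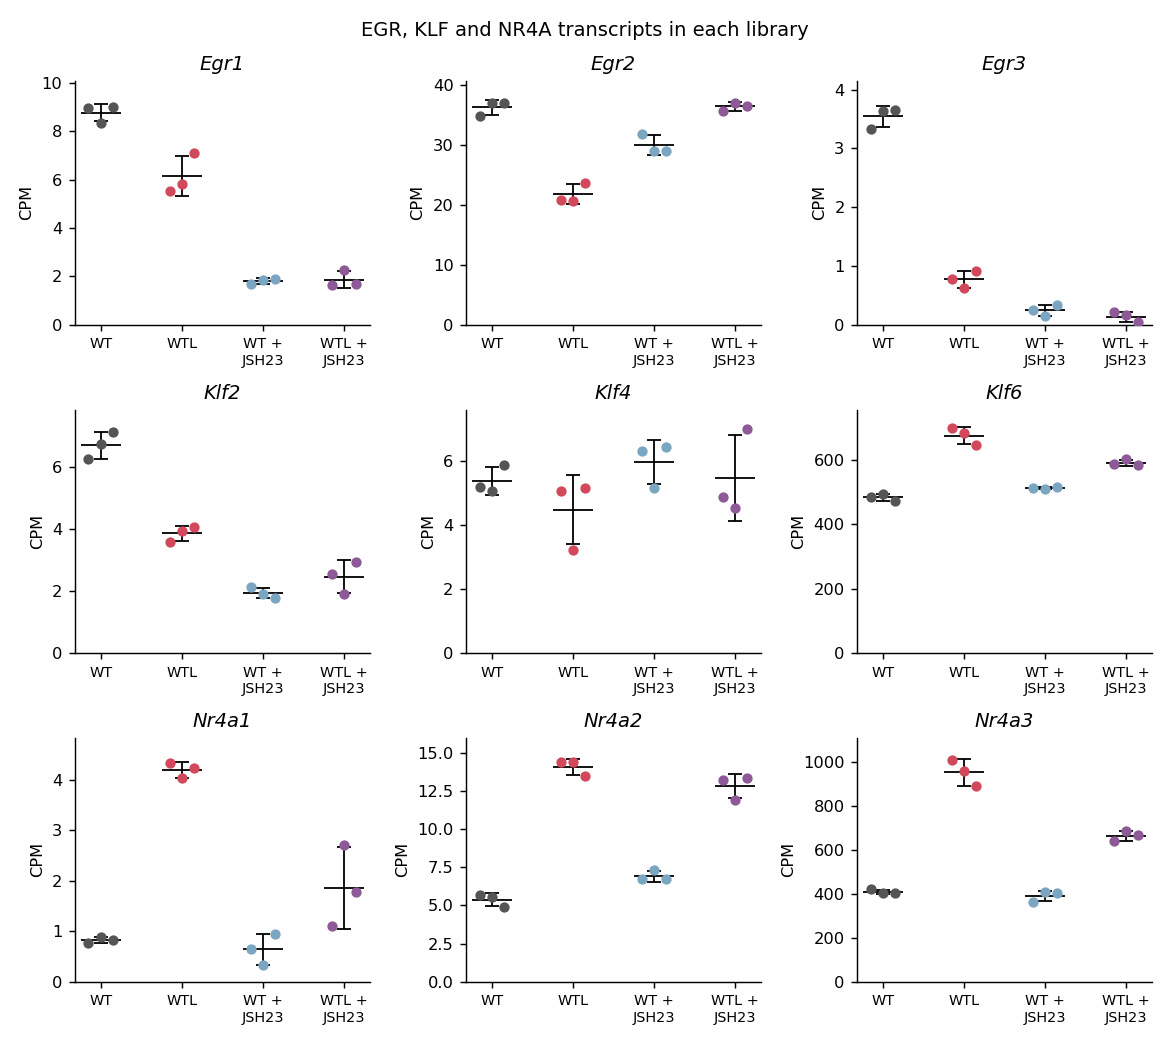
CPM of each member in every library (points), with the mean and SD over 3 libraries of WT, WTL, WT + JSH23 and WTL + JSH23 (linear axes that start at 0, scaled separately for each gene). The NR4A genes and Klf6 are highest in WTL, whereas Egr1, Egr3 and Klf2 are highest in WT.

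To examine the effect of JSH-23 alone, WT + JSH23 was compared with WT. Egr1, Egr2, Egr3 and Klf2 fell and Nr4a2 rose, so that 5 of 9 members passed where 41% of all genes did (18.8% higher and 22.1% lower). The libraries of 6 members did not overlap, as was the case for 51.5% of all genes. Egr1, Egr3 and Klf2 changed by more than 2-fold, which 5.37% of all genes did. Egr3 counts were 8, 4 and 10 in WT + JSH23, or 0.246, 0.145 and 0.340 CPM. No library of this group came near the WT level, and Egr3 was 14.2-fold lower (log2 fold change -3.83, SE 0.27, edgeR adjusted p = 2.05e-10), a ratio that rests on 4 to 10 counts per library. Egr1 was at 1.69, 1.85 and 1.91 CPM, which is 4.84-fold below WT (log2 fold change -2.27, SE 0.13, edgeR adjusted p = 6.21e-12). Klf2 was at 2.12, 1.92 and 1.77 CPM, which is 3.44-fold below WT (log2 fold change -1.78, SE 0.14, edgeR adjusted p = 7.73e-10). For these genes JSH-23 without LPS gave lower means than LPS without JSH-23, a pair of conditions that was not tested against each other.

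Egr2 fell less than its relatives, to 32.0, 29.0 and 29.1 CPM (log2 fold change -0.27, SE 0.05, edgeR adjusted p = 0.000352). As a result, Egr2 made up 94.2% ± 0.762 of the summed EGR TPM in WT + JSH23 beside 77.0% ± 1.07 in WT (SD, n = 3), with no overlap between libraries. Nr4a2 rose to 6.73, 7.34 and 6.70 CPM (log2 fold change 0.36, SE 0.09, edgeR adjusted p = 0.00246), all above the WT libraries. Nr4a3 had 363, 406 and 402 CPM, overlapping WT (log2 fold change -0.07, SE 0.05, edgeR adjusted p = 0.287), and Nr4a1 had 0.645, 0.326 and 0.953 CPM on 21, 9 and 28 counts (log2 fold change -0.35, SE 0.34, edgeR adjusted p = 0.454). Klf4 had 6.33, 5.17 and 6.43 CPM and did not pass either (edgeR adjusted p = 0.456). Klf6 had 511, 509 and 515 CPM, all above WT, but missed the threshold (log2 fold change 0.08, SE 0.04, edgeR adjusted p = 0.0703). Without WTL replicate 6 and without WTL + JSH23 replicate 3, Klf6 was at the threshold or past it (edgeR adjusted p = 0.05 and 0.0487). Macrophage and monocyte markers fell alongside, with 9 of 11 lower and 1 higher at the summed levels given above, and their part in the lower Egr1, Egr3 and Klf2 levels was not tested.

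With LPS present, WTL + JSH23 was compared with WTL. Egr1, Egr3, Klf2, Klf6, Nr4a1 and Nr4a3 were lower with JSH-23 and Egr2 was higher, so that 7 of 9 members passed where 48.7% of all genes did (24.5% higher and 24.2% lower). For 8 members the libraries did not overlap, beside 54.8% of all genes. More than 2-fold lower were Egr1, Egr3 and Nr4a1, a size that 7% of all genes reached in either direction. Without WTL + JSH23 replicate 1 the change of Nr4a1 was below 2-fold (log2 fold change -0.89, edgeR adjusted p = 0.00345). Egr2 stood at 35.7, 37.1 and 36.6 CPM in WTL + JSH23, all far above the WTL libraries (log2 fold change 0.75, SE 0.06, edgeR adjusted p = 9.31e-10). Its mean of 36.5 ± 0.697 CPM was close to the 36.3 ± 1.21 CPM of WT, which was not compared by a test. Egr1 stood at 1.63, 2.27 and 1.69 CPM, which is 3.29-fold below WTL (log2 fold change -1.72, SE 0.14, edgeR adjusted p = 1.65e-09). Egr3 had 6, 4 and 1 counts, which were all below the 19 to 20 counts of WTL (log2 fold change -2.38, SE 0.41, edgeR adjusted p = 4.58e-05).

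Klf2 at 2.55, 1.91 and 2.94 CPM was 1.56-fold below WTL (log2 fold change -0.64, SE 0.15, edgeR adjusted p = 0.00117), and Klf6 at 587, 601 and 584 CPM was 1.14-fold below it (log2 fold change -0.19, SE 0.04, edgeR adjusted p = 0.000139). Klf6 did not pass with library totals (-0.062, edgeR adjusted p = 0.12) or in limma on log2(TPM + 1) (-0.059, adjusted p = 0.11) and log2(TPM + 0.1) (-0.06, adjusted p = 0.116). Klf4 at 4.89, 4.54 and 7.0 CPM overlapped WTL (edgeR adjusted p = 0.163). Among the receptors, Nr4a1 was at 1.10, 2.71 and 1.77 CPM on 31, 68 and 41 counts. These libraries were widely scattered, with a coefficient of variation of 43.4%, yet all lay below WTL (log2 fold change -1.19, SE 0.25, edgeR adjusted p = 0.00038). Nr4a3 was at 640.0, 685 and 668 CPM, 1.43-fold below WTL without overlap (log2 fold change -0.52, SE 0.05, edgeR adjusted p = 8.45e-09). Nr4a2 was at 13.3, 11.9 and 13.4 CPM and did not pass (log2 fold change -0.14, SE 0.08, edgeR adjusted p = 0.149), although the 3 libraries lay just below those of WTL. Of the macrophage and monocyte markers 10 of 11 were lower in WTL + JSH23 than in WTL, and all 6 neutrophil markers tested were lower at summed levels of 172 to 191 TPM against 218 to 226 TPM. Among all genes tested, 24.2% were lower. The part of either cell type in these results was not tested.

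**Figure D3:**
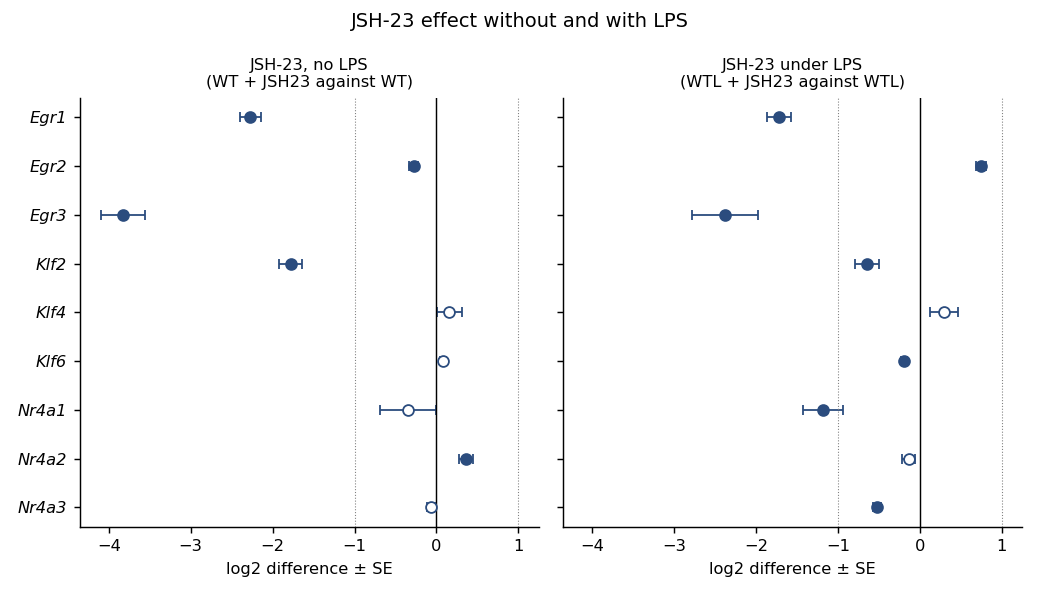
Log2 difference (± SE) of each member between JSH-23 and no JSH-23, without LPS (left) and under LPS (right). Filled points passed an edgeR adjusted p of 0.05, dotted lines mark 2-fold, and Egr1, Egr3 and Klf2 lie left of 0 in both panels while Egr2 changes side.

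After JSH-23, the LPS comparison (WTL + JSH23 against WT + JSH23) gave 5 of 9 members passed, all higher, namely Egr2, Klf6, Nr4a1, Nr4a2 and Nr4a3, where 54.5% of all genes passed (27.4% higher and 27.1% lower). The same 5 had libraries without overlap, beside 59.1% of all genes. Nr4a1 alone exceeded 2-fold (log2 fold change 1.51, SE 0.31, edgeR adjusted p = 0.000349), where 10.3% of all genes did. Nr4a2 rose 1.86-fold (log2 fold change 0.89, SE 0.08, edgeR adjusted p = 6.36e-09) and Nr4a3 1.70-fold (log2 fold change 0.77, SE 0.05, edgeR adjusted p = 1.35e-11). Klf6 rose 1.15-fold (log2 fold change 0.21, SE 0.04, edgeR adjusted p = 4.86e-05), and Egr2 rose 1.21-fold (log2 fold change 0.28, SE 0.06, edgeR adjusted p = 0.000255). Both of these small rises depended on the scaling of the libraries and on the test. In limma on log2(TPM + 1), Egr2 was at 0.065 (adjusted p = 0.426) and Klf6 at 0.026 (adjusted p = 0.454), and neither passed. With library totals in place of TMM the median of all genes moved from -0.02 to -0.26, Klf6 had a log2 fold change of -0.03 and Egr2 of 0.04, and neither passed. Relative to the median of all genes, the values of Klf6 were 0.23 and those of Egr2 0.30 under either scaling. Egr1, Egr3 and Klf2 did not pass here, with edgeR adjusted p of 0.87, 0.209 and 0.0829, and the libraries overlapped. Without WTL + JSH23 replicate 2, Klf2 passed at a log2 fold change of 0.49 (edgeR adjusted p = 0.0153). Klf4 had a log2 fold change of -0.14 (SE 0.16, edgeR adjusted p = 0.484).

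The question whether LPS acted differently after JSH-23 was addressed by the interaction, the log2 LPS change with JSH-23 minus that without it. It passed for 5 of 9 members, where 18% of all genes passed (9.54% higher and 8.44% lower), and exceeded 2-fold for Egr2 and Klf2, where 1.34% of all genes did. For Egr2 the LPS change was -0.74 without and 0.28 with JSH-23, a difference of 1.02 (SE 0.08, edgeR adjusted p = 5.26e-08). For Klf2 it was -0.80 without and 0.34 with JSH-23, a difference of 1.14 (SE 0.21, edgeR adjusted p = 0.000569). Both genes fell with LPS in the absence of JSH-23 and had values above 0 in its presence. For Klf2 the latter did not pass (edgeR adjusted p = 0.0829), and the gene already stood at a mean of 1.94 CPM in WT + JSH23 against 6.69 CPM in WT. The Egr2 value with JSH-23 passed with TMM, but not with library totals or in limma on log2(TPM + 1). The rises of Nr4a3, Nr4a2 and Klf6 were smaller after JSH-23, with differences of -0.45 (SE 0.07, edgeR adjusted p = 8.13e-05), -0.50 (SE 0.12, edgeR adjusted p = 0.00512) and -0.27 (SE 0.05, edgeR adjusted p = 0.000675). In linear terms Nr4a3 rose 2.33-fold without and 1.70-fold with JSH-23, and Nr4a2 2.62-fold and 1.86-fold.

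The interaction did not pass for Egr1 (0.56, SE 0.20, edgeR adjusted p = 0.0616), Egr3 (1.45, SE 0.60, edgeR adjusted p = 0.102), Nr4a1 (-0.83, SE 0.43, edgeR adjusted p = 0.196) or Klf4 (0.14, SE 0.23, edgeR adjusted p = 0.741). Several of these calls depended on a single library or on the test. Egr1 passed without WTL replicate 6 (0.66, edgeR adjusted p = 0.0255), Egr3 without WTL + JSH23 replicate 3, its library with 1 count (1.82, edgeR adjusted p = 0.0339), and Nr4a1 without WTL + JSH23 replicate 2 (-1.22, edgeR adjusted p = 0.0394). With all 12 libraries Egr1 passed with library totals (0.65, edgeR adjusted p = 0.0286) and in limma on log2(TPM + 1) (0.57, adjusted p = 0.0248) but not on log2(TPM + 0.1) (adjusted p = 0.0958). Egr3 passed in limma on both scales (1.057, adjusted p = 8.16e-05, and 1.90, adjusted p = 0.0035). At 1 to 10 counts per library with JSH-23, the Egr3 response in those groups was poorly determined.

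**Figure D4:**
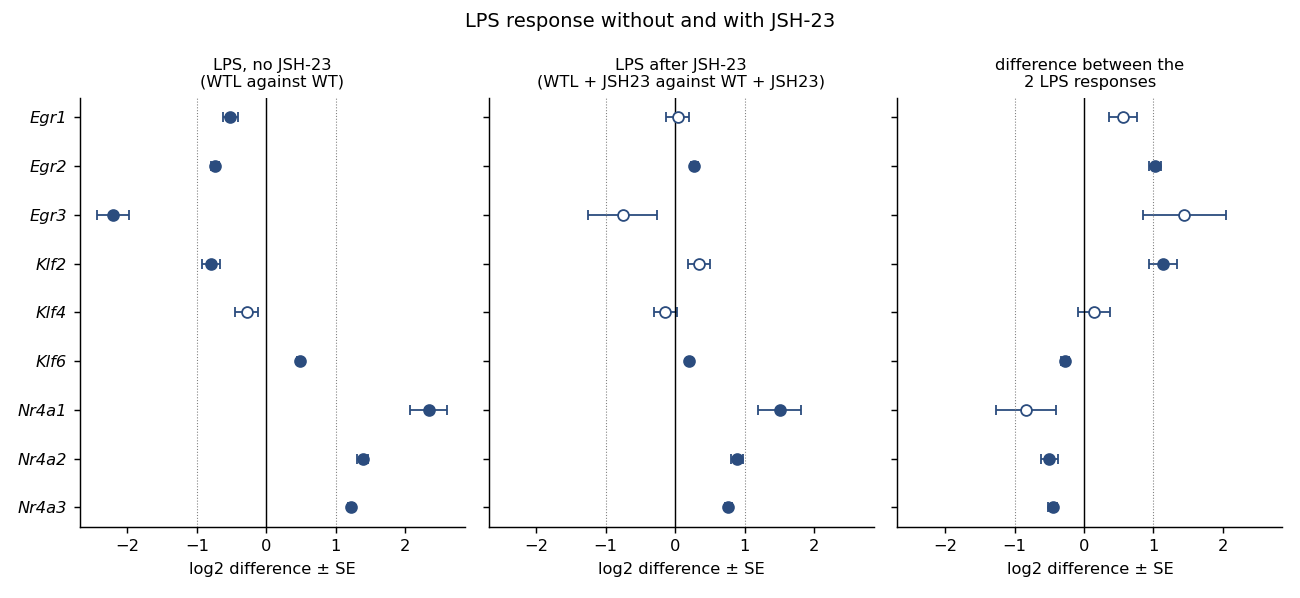
Log2 difference (± SE) of each member after LPS without JSH-23 (left), after JSH-23 (middle) and the difference between these responses (right). Filled points passed an edgeR adjusted p of 0.05, and Egr2 lies at -0.74 in the left panel and at 0.28 in the middle panel.

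Other genes of the same response were taken from lists written from general knowledge. Of 19 other immediate early genes, 14 were higher and 3 lower in WTL than in WT, with a median log2 fold change of 0.71 beside -0.05 for all genes, of which 31% were higher and 34.7% lower. The largest rises were those of Dusp2, a phosphatase that acts on MAP kinases (2.75, SE 0.06, edgeR adjusted p = 3.34e-19), and Fosl2, an AP-1 subunit (2.52, SE 0.05, edgeR adjusted p = 2.17e-20). Fos, the classical AP-1 subunit, fell from a mean of 10.4 to 3.04 CPM (-1.76, SE 0.13, edgeR adjusted p = 8.23e-11), and Myc fell as well (-1.01, SE 0.15, edgeR adjusted p = 3.57e-06). Falls at 3 h were therefore also measured outside the EGR family. After JSH-23 the list had 12 genes higher and 3 lower under LPS, where 27.4% of all genes were higher and 27.1% lower. The interaction passed for 8 of the 19, with a lower LPS change after JSH-23 for 7 such as Dusp2 (-0.92, SE 0.10, edgeR adjusted p = 2.33e-06) and a higher one for Fos (0.97, SE 0.20, edgeR adjusted p = 0.00166), where 8.44% of all genes were lower and 9.54% higher. Under JSH-23 without LPS, 8 of these genes were lower and 4 higher, with Fos lower (-1.17, SE 0.12, edgeR adjusted p = 3.71e-08) and Dusp1, another MAP kinase phosphatase, higher (0.78, SE 0.05, edgeR adjusted p = 6.87e-11). Of all genes tested, 22.1% were lower and 18.8% higher there.

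**Figure D5:**
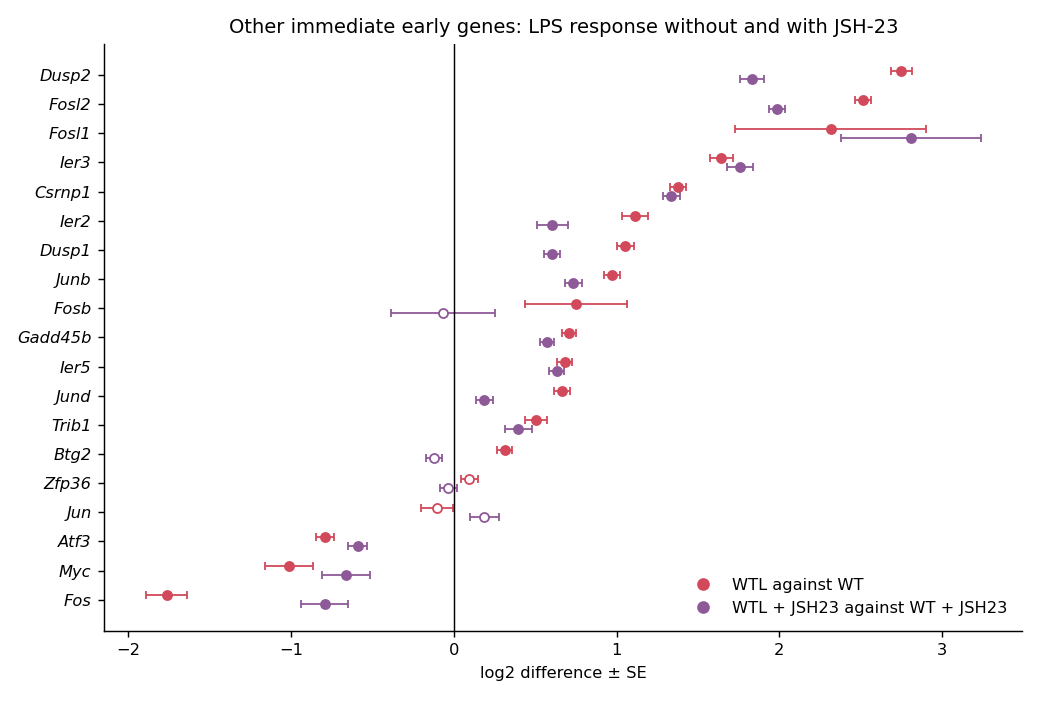
Log2 difference (± SE) after LPS of 19 other immediate early genes without JSH-23 and after JSH-23, ordered by the first. Filled points passed an edgeR adjusted p of 0.05, and Fos lies at -1.76 without and -0.79 with JSH-23.

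Of 19 further EGR, KLF and SP factors, 13 could be tested, of which 6 were higher and 4 lower in WTL than in WT. Of all genes tested, 31% were higher and 34.7% lower. Klf7 rose most, from a mean of 29.8 to 147 CPM (log2 fold change 2.30, SE 0.07, edgeR adjusted p = 4.20e-17), and Klf10, a gene known to respond to TGF-β, fell most (-1.95, SE 0.08, edgeR adjusted p = 6.89e-15). Klf7 was lower with JSH-23 in either state (-1.07 without and -1.13 with LPS), but its LPS change with JSH-23 was 2.24. Klf10 was the single gene of this list to pass the interaction (1.00, SE 0.12, edgeR adjusted p = 4.37e-06), where 18% of all genes passed. All 7 partners and corepressors passed under LPS, 2 higher and 5 lower, where 65.7% of all genes passed. The EGR corepressor genes moved apart, with Nab1 higher (0.56, SE 0.05, edgeR adjusted p = 1.29e-09) and Nab2, itself known as an EGR target, lower (-0.59, SE 0.06, edgeR adjusted p = 3.42e-08). Nab2 was also lower with JSH-23 without LPS (-0.53, SE 0.06, edgeR adjusted p = 3.10e-07) and under LPS (-0.93, SE 0.07, edgeR adjusted p = 4.61e-10). Rxra, which encodes a receptor that pairs with NR4A1 and NR4A2, fell with LPS (-0.58, SE 0.06, edgeR adjusted p = 3.59e-08) and was higher with JSH-23 without LPS (0.54, SE 0.05, edgeR adjusted p = 5.47e-08) and under LPS (0.61, SE 0.06, edgeR adjusted p = 4.56e-08).

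Among 19 kinases and factors that act upstream of these genes, 10 were higher and 5 lower in WTL than in WT. Of all genes tested, 31% were higher and 34.7% lower. Map3k8, the kinase that links TLR4 to ERK, rose (1.55, SE 0.07, edgeR adjusted p = 6.89e-15), as did Mef2a (1.13, SE 0.04, edgeR adjusted p = 1.40e-15), whereas Mef2c fell (-0.94, SE 0.18, edgeR adjusted p = 9.28e-05). JSH-23 without LPS was accompanied by higher Crem, a CREB family gene (1.21, SE 0.08, edgeR adjusted p = 5.64e-11), and lower Mef2c (-1.50, SE 0.19, edgeR adjusted p = 8.61e-07), with 4 genes of the list higher and 8 lower. The shares over all genes were 18.8% higher and 22.1% lower. Of 6 textbook targets of KLF2 and KLF4, 5 were tested. Cdkn1a, which encodes the cell cycle inhibitor p21, rose under LPS from a mean of 560.3 to 2129 CPM (1.93, SE 0.03, edgeR adjusted p = 6.18e-21). In all, 1 target was higher and 3 were lower in WTL than in WT, beside 31% and 34.7% of all genes.

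The likeness of profiles was described by Pearson r of log2 CPM over the 12 libraries among 11027 protein-coding genes. The libraries fall into 4 groups, so each r mainly follows the group means. Nr4a3 was closest to Rnd3 (r = 0.996), Mdfic and Clstn1, and Nr4a2 to Serpinb9b (r = 0.994), Cpeb4 and Serpinb9. Klf6 was closest to Dstn (r = 0.997), Id2 and Micall2, and Nr4a1 to U90926 (r = 0.978), Pop7 and Dgat2. Those closest to Egr1 were Itpr1 (r = 0.988), Gpr141 and P2rx5, to Egr3 Mcl1 (r = 0.990), Cyld and Ptpro, and to Klf2 Traf3ip3 (r = 0.980), Rps6ka4 and Elf4. Egr2 and Klf4 had looser neighbours, Zbtb40 (r = 0.939), Slc38a2 and Mau2 for Egr2 and Slc25a53 (r = 0.869), Abhd8 and Spsb3 for Klf4. Between members, r was 0.972 for Klf6 and Nr4a3, 0.922 for Egr1 and Egr3 and 0.910 for Egr1 and Klf2, whereas Egr2 had an r of -0.204 with Egr1 and 0.020 with Egr3.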

How the data were processed

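RNA of 12 libraries was measured by RNA-seq. The authors trimmed reads with Trim Galore, aligned them to mm10 with STAR (2.6.0c in the submitters' processing notes) and ran RSEM with a GENCODE annotation (release not given in the sources used here). The labels name rRNA depletion and the methods of the study a poly(A) kit. Deposited expected counts carry no normalization, and the TPM deposited by the authors are scaled by effective length. Expected counts were rounded to whole numbers, filtered with filterByExpr (14357 genes left) and scaled by TMM in edgeR 4.0.16 (R 4.3.3). Quasi-likelihood F-tests used all 12 libraries with 1 mean per group and 8 residual degrees of freedom, with Benjamini-Hochberg adjustment over all genes. SE is the absolute log2 change divided by the square root of F. Names and positions came from GENCODE M21. The script was tested on simulated data. Alternatives were DESeq2 1.42.0, limma 3.58.1 on log2(TPM + 1) and log2(TPM + 0.1), other scalings, filters and thresholds, a replicate block and leaving out libraries.

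The members and gene lists were chosen with earlier results of these data known. Beyond the 9 members, the rule for names takes from each list at most the 2 largest rises and the 2 largest falls that passed, with a mean of at least 1 CPM and more than 3 counts per library in the higher group, and the 3 most alike protein-coding genes per member. Not every gene that this rule admits is described. The number of libraries and counts limit precision: members with few counts, such as Egr3 (1 to 128 per library), are less certain than Klf6 and Nr4a3. No libraries of 1 group were alike within counting noise, so each was counted once.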

Additional observations from a re-analysis of the deposited data

Results flagged for a closer look

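The LPS response differed with and without JSH-23, by a test of the difference itself (edgeR interaction over 12 libraries), for 5 of the 9 genes, where 18% of all genes passed. The difference, given as the log2 LPS change with JSH-23 minus that without it, was 1.02 for Egr2 and 1.14 for Klf2, both of which fell under LPS without JSH-23. With JSH-23 the LPS change of Klf2 did not pass (edgeR adjusted p = 0.0829). The difference was -0.27 for Klf6, -0.50 for Nr4a2 and -0.45 for Nr4a3, all of which rose under LPS in both settings with TMM in edgeR. With JSH-23, the LPS change of Klf6 did not pass with library totals (-0.032, edgeR adjusted p = 0.407). It did not pass in limma on log2(TPM + 1) either (0.026, adjusted p = 0.454). Nr4a2 did not pass there in that limma fit (0.068, adjusted p = 0.82), which includes the 9.83 TPM of WT + JSH23 replicate 3. Groups of 3 libraries are too small for the test of single outlying libraries used here, so none was made.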

How the results depend on the processing

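Requiring more than 2-fold lowered the number of members passed to 4 (LPS), 1 (LPS after JSH-23), 3 (JSH-23 under LPS), 3 (JSH-23 alone) and 2 (interaction). For LPS after JSH-23, limma on log2(TPM + 1) and on log2(TPM + 0.1) each passed 2. Leaving out a library gave 8 to 8, 5 to 6, 7 to 7, 5 to 6 and 5 to 6 members. The Egr1 response to LPS after JSH-23 (0.04) had the opposite sign with limma on log2(TPM + 1) (-0.10) and log2(TPM + 0.1) (-0.20), upper quartile scaling (-0.046) and library totals (-0.20), and ran from -0.128 to 0.137 with a library left out (-0.014 without WT + JSH23 replicate 1), never passing in these fits. Relative to the median of all genes, Egr1 in that comparison was 0.055 with TMM and 0.057 with library totals. Klf6 in that comparison was -0.032 with library totals. The Klf4 interaction (0.14) ran from -0.069 without WTL replicate 5 to 0.254, and was -0.064 without WTL + JSH23 replicate 3. Klf4 passed under LPS with library totals (-0.61) and limma on log2(TPM + 1) (-0.43). Relative to the median of all genes, Klf4 was -0.23 both with TMM and with library totals. Klf6 under LPS was 0.15 with library totals and 0.165 with limma on log2(TPM + 1), and its JSH-23 change under LPS did not pass with either (-0.062 and -0.059). The interaction passed for Egr3 with limma on log2(TPM + 1) (1.057) and log2(TPM + 0.1) (1.90) and for Egr1 with limma on log2(TPM + 1) (0.57) and library totals (0.65). With JSH-23 alone, Klf6 passed with DESeq2 (0.084), upper quartile scaling (0.10) and library totals (0.12). Nr4a2 lost its LPS call after JSH-23 with limma on log2(TPM + 1) (0.07), and its interaction did not pass there either (-0.78), where WT + JSH23 replicate 3 is listed at 9.83 TPM from an effective length of 1089 against 2694 to 3089 in the other libraries, while its CPM was like the others. Same-numbered libraries deviated together only weakly (r from 0.014 to 0.061) and not every library was closest to its own number. With the replicate number as a block, 8, 5 and 5 members passed for LPS, LPS after JSH-23 and the interaction, the same counts as without it, and JSH-23 comparisons share no number. Among 422 checks of single members 392 kept direction and side of the threshold, and 530 of 540 did so with a library left out. Counts of 1 to 10 for Egr3 with JSH-23 limit its response there.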
